A study of Mus musculus with 6 samples.

Results

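The expressed solute carriers are the genes whose symbol has the form Slc, a family number, the letter a and a member number, and whose mean over the 6 libraries was at least 10 normalized counts. Of 331 names of this form in the table, 163 were members, out of 24129 gene names in all. The members were thus selected on the mean level of all libraries together. Of the 168 names left out, 96 had no read in any library and 72 had some. The names just outside the threshold were Slc5a5, with a mean of 6.01 normalized counts, Slc8a3 with 6.81 and Slc17a7 with 8.18. Just inside it stood Slc6a4 with 10.5, Slc40a1 with 10.9 and Slc41a3 with 11.2. A mean of 10 was reached in both populations by 155 members, in T1 alone by 3 and in T2 alone by 5, and these 8 are members through the population where they were high. The members were placed by their known substrates into 10 classes.

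Both populations descend from 4T1GFP, a mouse mammary carcinoma line carrying GFP that had been injected into BALB/c mice. They were sorted from GFP-positive cells that had overgrown a culture of fibroblasts taken from the primary tumor. T1 (labelled 4T1A) had low GFP, an adherent epithelial shape and a high proliferation rate, and T2 (labelled 4T1NA) had high GFP, a round shape and a loose attachment. Both were cultured in DMEM/F-12 with serum, T1 as an attached and T2 as a suspension-like culture, and RNA was taken from cell pellets of 3 replicates of each. Each population is therefore a sorted line from a single tumor model, and the labels do not say whether the replicates were separate cultures. The study's methods speak of biological replicates for its experiments in general, without describing those of the RNA libraries. The p-values measure the spread between these libraries, which may be in part technical.

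Solute carriers are membrane proteins that move sugars, amino acids, ions, metals, vitamins and metabolites across the plasma membrane and the membranes of organelles, either down a gradient, coupled to another ion, or in exchange for another solute. Some work alone, while others need a partner. The light chains of the Slc7 family reach the surface bound to the heavy chain 4F2hc (Slc3a2), and the lactate carriers Slc16a1 and Slc16a3 need basigin. Tumor cells commonly depend on glucose, glutamine, large neutral amino acids, cystine, lactate export, iron and zinc, each of which enters or leaves through named carriers.

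The libraries held 18133227 to 20839686 reads on genes, and the members together made up 1.14% to 1.26% of the normalized counts of a library. Differences are given as log2 fold changes of normalized counts plus 1, T1 minus T2, with a standard error (SE), and a gene is called at an adjusted p under 0.01. Replicates differed by more than counting noise, with a chi-square per degree of freedom between 8.26 and 26.1. T1 replicate 3 stood apart from the other T1 libraries. It was at least 1.5-fold above both of them in 188 of the 9549 genes with a T1 mean of at least 100 (1.97%), and in 8 of 126 such members (6.35%). T1 replicates 1 and 2 were this far above the others in 9 and 25 genes and in 0 members. Among the T2 libraries, replicate 2 was this far above the others in 120 of 9557 genes and in 2 members, Slc20a1 and Slc25a25. Of the 8 members that stood apart in T1 replicate 3, Slc7a5, Slc6a9, Slc7a11, Slc4a11 and Slc24a3 are given below with and without that library. Of 8 markers of mammary carcinoma epithelium, 6 were called higher in T1, and their summed level was 96360 to 114408 normalized counts in T1 and 37618 to 43996 in T2, while Krt8 and Krt18 were not called. Summed markers of fibroblasts reached at most 40.0 normalized counts in T1 and 0.979 in T2, with Col3a1, Lum and Pdgfrb at 0 in all libraries, and those of leukocytes, endothelium and adipocytes at most 14.8. The part of the epithelial difference in the carrier levels was not tested. In bulk RNA, fewer cells of a kind and less RNA per cell cannot be told apart.

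Of the 163 members, 37 were called higher and 48 lower in T1 (52.1%), against a background of 49.5% of all 11514 genes tested, 25.1% higher and 24.4% lower. Both filters of the study, an adjusted p under 0.01 and a log2 fold change beyond 2, were passed by 5 members in the higher and 12 in the lower direction (10.4%), where 8.37% of all genes tested passed them, 4.17% higher and 4.2% lower. Of these 17 members, 6 (Slc7a7, Slc16a10, Slc40a1, Slc6a4, Slc14a1 and Slc46a3) reached the mean of 10 in 1 population only, so that their membership and their fold rest on the same values. Among the 155 members that reached it in both populations, 2 passed both filters in the higher and 9 in the lower direction (7.1%), against 4.93% of the 10917 genes that reached it in both, 2.26% higher and 2.67% lower. The 3 T1 values did not overlap the 3 T2 values in 112 members (68.7%), and in 68.1% of all genes. As a set, the carriers were therefore called about as often as other genes, and their median log2 fold change was -0.11 against -0.0055 over all genes. The classes differed in their counts. Among amino acid carriers 7 were higher and 2 lower (40.9% called), whereas among sugar carriers 1 was higher and 7 lower (72.7%). Among carriers of organic ions 0 were higher and 7 lower (70%).

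**Figure D1:**
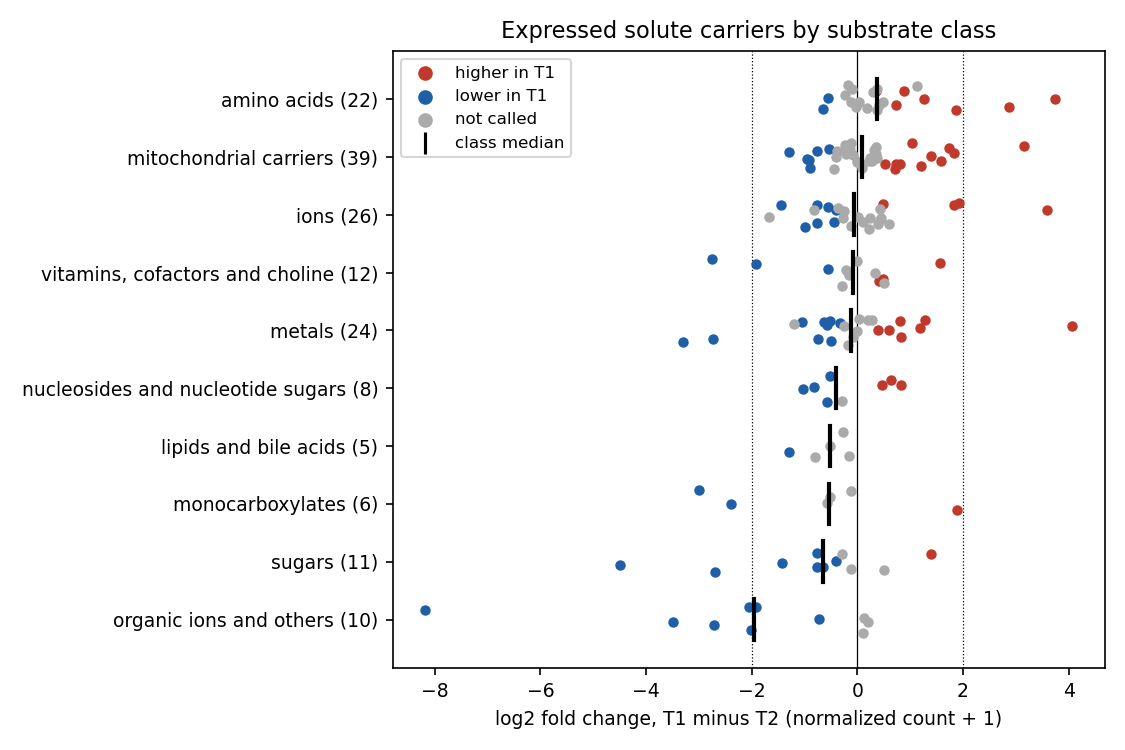
Log2 fold change (T1 minus T2) of each of the 163 members, arranged by substrate class with the number of members in parentheses; red and blue points were called higher and lower in T1, gray points were not called, black bars are class medians and dotted lines mark the fold filter of the study. Amino acid carriers had the highest class median, 0.36, and carriers of organic ions and other solutes the lowest, -1.96.

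**Figure D2:**
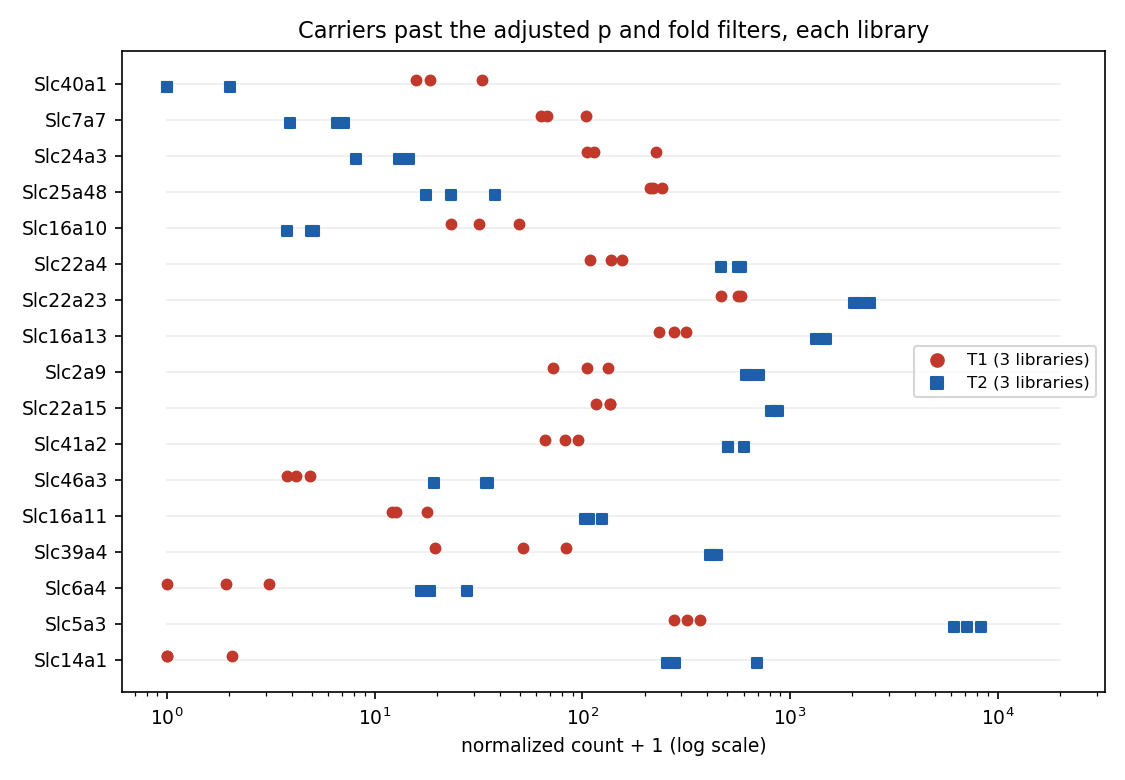
Normalized count plus 1 on a log scale for the 17 members past both filters, one point per library, T1 as red circles and T2 as blue squares, ordered by fold change. The 3 T1 and the 3 T2 values do not overlap in any of the 17 genes, and Slc40a1 in T2 and Slc14a1 in T1 lie at or next to 0 counts.

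Sugar carriers were mostly lower in T1. The class has 11 members whose log2 fold changes had a median of -0.65, and without T2 replicate 1 the number called lower was 4 instead of 7. The facilitative glucose carriers of the Slc2 family were represented by Slc2a1, Slc2a8 and Slc2a9. Slc2a1 (GLUT1, basal glucose uptake) had 2669, 2721 and 3156 normalized counts in T1 and 4058, 3776 and 3464 in T2. Each T1 library was below each T2 library, by a log2 fold change of -0.40 (SE 0.09, adjusted p = 0.0031), a call that was lost in 4 of the 6 fits that left out 1 library. Slc2a9 (GLUT9, a urate carrier) had 105, 71.6 and 133 in T1 and 625, 616 and 710 in T2, a 6.31-fold difference in means (log2 fold change -2.69, SE 0.20, adjusted p = 1.8e-06). Slc2a8 (GLUT8, an intracellular hexose carrier) was lower by -1.42 (SE 0.29, adjusted p = 0.0016). Slc2a3, the neuronal type glucose carrier, had no read in any library, and Slc2a4, the insulin responsive one, had at most 4.23 normalized counts in a library. Per kilobase of exon, Slc2a1 held 95.5% ± 1.22 (SD, n = 3) of the normalized counts of the 3 Slc2 members in T1 and 85.9% ± 1.71 in T2.

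The largest difference among the sugar carriers was in Slc5a3 (SMIT1), the sodium coupled carrier of myo-inositol, an osmolyte. Slc5a3 (16:92058322-92087473, plus strand) had 366, 319 and 276 normalized counts in T1 and 7117, 6143 and 8353 in T2. The lowest T2 value was far above every T1 value, and the means, 320 ± 45.0 and 7204 ± 1108 (SD, n = 3), differed 22.5-fold (log2 fold change -4.48, SE 0.13, adjusted p = 2.7e-09). Exons of Slc5a3 overlap those of Mrps6, a mitochondrial ribosomal protein gene on the same strand, so reads of the shared exons could be counted for either or discarded. Mrps6 had 529, 535 and 496 in T1 and 2432, 2079 and 2620 in T2 (log2 fold change -2.19, SE 0.10, adjusted p = 5.9e-08). Both genes were lower in T1, Slc5a3 by more. Carriers that serve sugar phosphates at the endoplasmic reticulum went both ways, with Slc37a4, which carries glucose-6-phosphate, lower (-0.77, adjusted p = 0.0017) and Slc37a1 higher (1.39, adjusted p = 0.0012) on the log2 scale.

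Among genes that act next to glucose carriers, Txnip, the arrestin that removes GLUT1 from the surface, had 49.7, 24.2 and 26.4 in T1 and 411, 146 and 399 in T2 (log2 fold change -3.15, SE 0.40, adjusted p = 6.7e-05). Hk1, a hexokinase that traps glucose, was lower in T1 (-0.54, adjusted p = 0.00029), and Pkm, pyruvate kinase, was lower by -0.29 (adjusted p = 0.0081). Mpc2, a subunit of the mitochondrial pyruvate carrier, was higher in T1 (0.66, adjusted p = 0.00057), and its partner Mpc1 was not called (0.95, adjusted p = 0.023). Hk2, Pfkp and Ldha were not called, with adjusted p of 0.16, 0.19 and 0.21.

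Amino acid carriers showed the opposite balance. Of 22 members, 7 were called higher and 2 lower in T1 (40.9%, against 49.5% of all genes tested). The other 13 were not called, and the class median was 0.36. Those called higher included the heavy chain 4F2hc and its light chains Slc7a5, Slc7a6 and Slc7a7. Its light chain Slc7a11 was not called. Slc3a2 (4F2hc, CD98) had 6846, 6646 and 9662 normalized counts in T1 and 3062, 4083 and 2540 in T2, a 2.39-fold difference in means (log2 fold change 1.26, SE 0.18, adjusted p = 0.00014). Slc7a5 (LAT1, an exchanger of large neutral amino acids such as leucine) had 7369, 7090 and 13766 in T1 and 2610, 2575 and 2174 in T2. Its T1 mean was 3.84 times the T2 mean (log2 fold change 1.87, SE 0.21, adjusted p = 3.0e-05). No T1 value of either gene came down to a T2 value, and T1 replicate 3 was the highest library for both.

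Slc7a7 (y+LAT1, which exchanges basic for neutral amino acids) had 62.4, 67.0 and 103 in T1 and 2.94, 6.14 and 5.57 in T2. At 15.9-fold it was the largest relative difference of the class (log2 fold change 3.75, SE 0.35, adjusted p = 7.4e-06), at a low level. Exons of Slc7a7 overlap those of Oxa1l on the other strand, and reads from the 2 strands cannot be told apart if strand was not used in counting. Slc7a6 (y+LAT2) had 3184, 3216 and 2407 in T1 and 1424, 1879 and 1442 in T2 (log2 fold change 0.89, SE 0.14, adjusted p = 0.00026). Slc7a1 (CAT1), the uptake carrier of arginine and lysine, does not use the heavy chain and was not called (0.42, adjusted p = 0.047). Summed per kilobase, the 5 Slc7 members stood at 3682 ± 1085 normalized counts in T1 and 1356 ± 131 in T2 (SD, n = 3). The share of Slc7a5 within that sum was 67.6% ± 6.62 in T1 and 48.8% ± 3.11 in T2.

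Slc16a10 (TAT1), which carries aromatic amino acids, had 30.7, 48.4 and 22.4 in T1 and 3.92, 4.10 and 2.78 in T2 (log2 fold change 2.87, SE 0.39, adjusted p = 0.00011). It too was low, with no T2 library above 4.10. The glutamine carriers were abundant and differed less. Slc1a5 (ASCT2) had a mean of 4910 ± 485 in T1 and 2949 ± 338 in T2 (SD, n = 3, log2 fold change 0.74, adjusted p = 0.00013), and Slc38a1 (SNAT1) was higher by 0.36 (adjusted p = 0.0053). Slc38a2 (SNAT2), the most abundant of the Slc38 family per kilobase, had 10352 to 11954 in T1 and 9912 to 13274 in T2, and the interval of its log2 fold change ran from -0.26 to 0.23 (95%). The 2 members lower in T1 were Slc36a1 (PAT1, a proton coupled carrier of lysosomes), with 369, 314 and 397 against 535, 595 and 561, and Slc38a10, with a mean of 3635 against 5345.

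T1 replicate 3 carried much of the remaining signal in this class. Of 18 amino acid members with a T1 mean of at least 100, 6 were at least 1.5-fold above both other T1 libraries in that library alone: Slc1a4, Slc38a7, Slc6a9, Slc7a1, Slc7a11 and Slc7a5. Slc6a9 (GLYT1, glycine uptake) had 584, 502 and 2808 in T1 and 413, 433 and 444 in T2. Slc7a11 (xCT, which takes up cystine in exchange for glutamate) had 242, 212 and 909 in T1 and 230, 347 and 316 in T2, so that 1 T1 library lay within the range of T2, 1 was the lowest of the 6 and replicate 3 was the highest. Without T1 replicate 3, the log2 fold change of Slc7a11 went from 0.29 (adjusted p = 0.59) to -0.37 (adjusted p = 0.11), and that of Slc6a9 from 1.12 (adjusted p = 0.076) to 0.33 (adjusted p = 0.029). Neither gene was called in either fit.

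Unlike the light chain Slc7a11, the heavy chain and the light chains Slc7a5, Slc7a6 and Slc7a7 were called with and without that library. Without it, Slc7a5 was higher by 1.56 (adjusted p = 9.1e-07), Slc3a2 by 1.09 (adjusted p = 0.00029), Slc7a6 by 1.03 (adjusted p = 6.2e-05) and Slc7a7 by 3.53 (adjusted p = 3.9e-05), while Slc38a1 lost its call (0.30, adjusted p = 0.013). The class median went from 0.36 to 0.15, and 6 members were called higher and 2 lower. The same library was the highest for genes of the amino acid response. Atf4, the transcription factor of that response, had 9486, 9865 and 13702 in T1 and 5674, 8132 and 5515 in T2. Asns (asparagine synthetase) had 3572, 2956 and 6673 against 1454, 1468 and 1344, and Chac1, a known target of ATF4, 761, 934 and 2209 against 241, 477 and 219. All 3 were called higher in T1 with that library (log2 fold changes 0.78, 1.54 and 1.98) and without it (0.61, 1.19 and 1.52). Their part in the carrier levels was not tested. Of 9 enzymes and regulators of amino acid use, 6 were called higher and 1 lower (77.8%, against 49.5% of all genes tested). Among them, Ass1 (argininosuccinate synthase, 2.38) and Glul (glutamine synthetase, 0.60) were higher, and Gclc (glutathione synthesis from cysteine, -0.49) was lower.

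**Figure D3:**
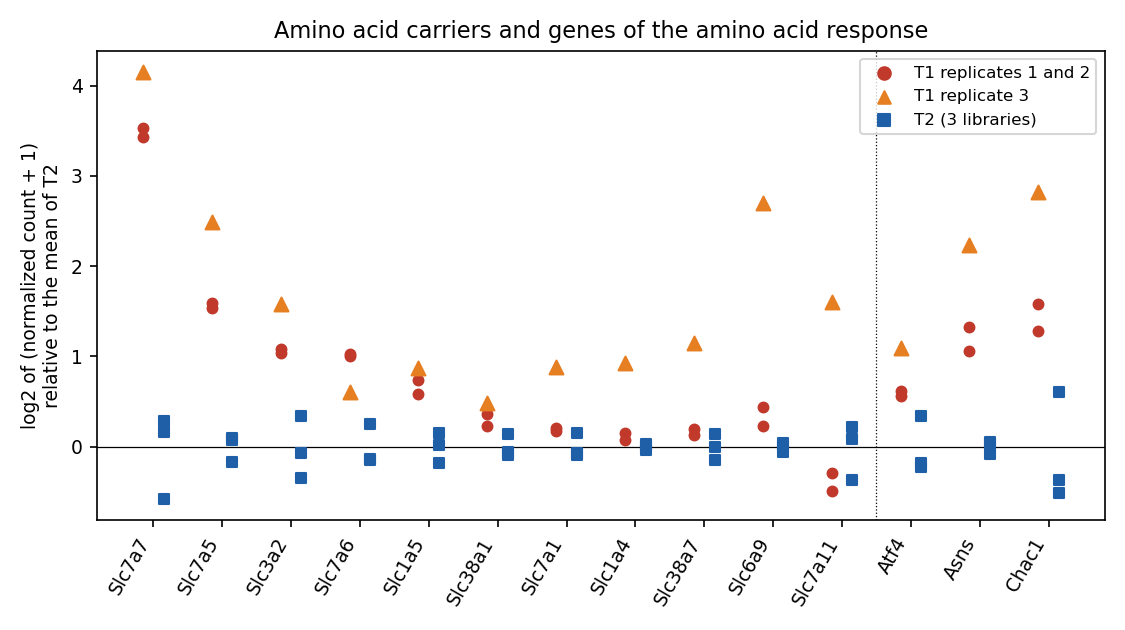
Level of 11 amino acid carriers and of Atf4, Asns and Chac1 (right of the dotted line) in each library, as log2 of the normalized count plus 1 relative to the mean of T2; orange triangles are T1 replicate 3, red circles T1 replicates 1 and 2, and blue squares T2. Every T1 library lies above every T2 library in all genes shown except Slc7a11 and Slc38a7. Among the carriers with a T1 mean of at least 100, T1 replicate 3 stands at least 1.5-fold above both other T1 libraries in 6. These are Slc7a5, Slc6a9, Slc7a11, Slc38a7, Slc1a4 and Slc7a1.

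The promoters of Slc7a7 and Slc7a11 are shown because they hold the letters of the C/EBP-ATF response element (CARE, TGATGNAA), which ATF4 dimers are known to bind. Both stretches lie upstream of a RefSeq start site (build GRCm38.p6, which is the mm10 assembly), outside annotated exons, and capitals mark the element on either strand. Slc7a7, chr14:54417945-54418194, minus strand, had 1 match and Slc7a11, chr3:50443615-50443863, minus strand, had 2, which face each other.
Slc7a7: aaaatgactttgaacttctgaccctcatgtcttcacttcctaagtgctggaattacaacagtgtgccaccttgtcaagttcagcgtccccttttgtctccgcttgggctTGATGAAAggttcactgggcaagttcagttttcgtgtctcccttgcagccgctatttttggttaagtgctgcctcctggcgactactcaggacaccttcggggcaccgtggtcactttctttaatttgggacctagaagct
Slc7a11: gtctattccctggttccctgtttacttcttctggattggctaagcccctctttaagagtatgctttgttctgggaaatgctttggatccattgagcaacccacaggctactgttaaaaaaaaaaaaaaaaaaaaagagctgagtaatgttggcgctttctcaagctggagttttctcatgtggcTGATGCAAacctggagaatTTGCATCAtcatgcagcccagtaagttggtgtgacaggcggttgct
The element was found in the 300 base window around a start of 6 of the 127 members with a RefSeq promoter (4.72%), of 4.51% of all genes with one and of 2.51% of tested genes with one. It was present in 1 of 28 members higher in T1, in 1 of 42 lower and in 4 of 57 not called. Of the 8 members that stood apart in T1 replicate 3, 6 had a promoter in the table, and 2 of these held the element, Slc7a11 and Slc1a4.

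Monocarboxylate carriers had 6 members. The lactate and pyruvate carrier Slc16a1 (MCT1) was by far the most abundant, with 87.2% ± 0.70 of the Slc16 family's normalized counts per kilobase in T1 and 67.3% ± 2.02 in T2 (SD, n = 3). It had 5872, 5912 and 4219 in T1 and 5315, 6349 and 5618 in T2, with overlap, and its log2 fold change was -0.12 (95% interval -0.41 to 0.16, adjusted p = 0.42). The lactate exporter Slc16a3 (MCT4) had at most 3 reads in a library and Slc16a7 (MCT2) had none. Basigin (Bsg), the chaperone of Slc16a1 and Slc16a3, was not called (0.10, adjusted p = 0.22).

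The differences of this family were in less studied members. Slc16a13 had 314, 277 and 233 in T1 and 1492, 1474 and 1341 in T2, 5.22-fold lower in T1 (log2 fold change -2.39, SE 0.12, adjusted p = 1.2e-07). Slc16a11 had 16.9, 11.2 and 11.7 against 102, 124 and 107 (log2 fold change -2.99, SE 0.25, adjusted p = 3.5e-06). These 2 genes are neighbors on chromosome 11, on opposite strands with their 3′ ends 371 bases apart. In the other direction, Slc16a6 (MCT7, a carrier of ketone bodies) had 251, 225 and 186 in T1 and 48.0, 65.5 and 64.0 in T2 (log2 fold change 1.88, SE 0.19, adjusted p = 1.5e-05), with exons that overlap Amz2 and Arsg on the other strand. The share of Slc16a13 within the family was 7.69% ± 0.60 in T1 and 28.6% ± 2.12 in T2.

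**Figure D4:**
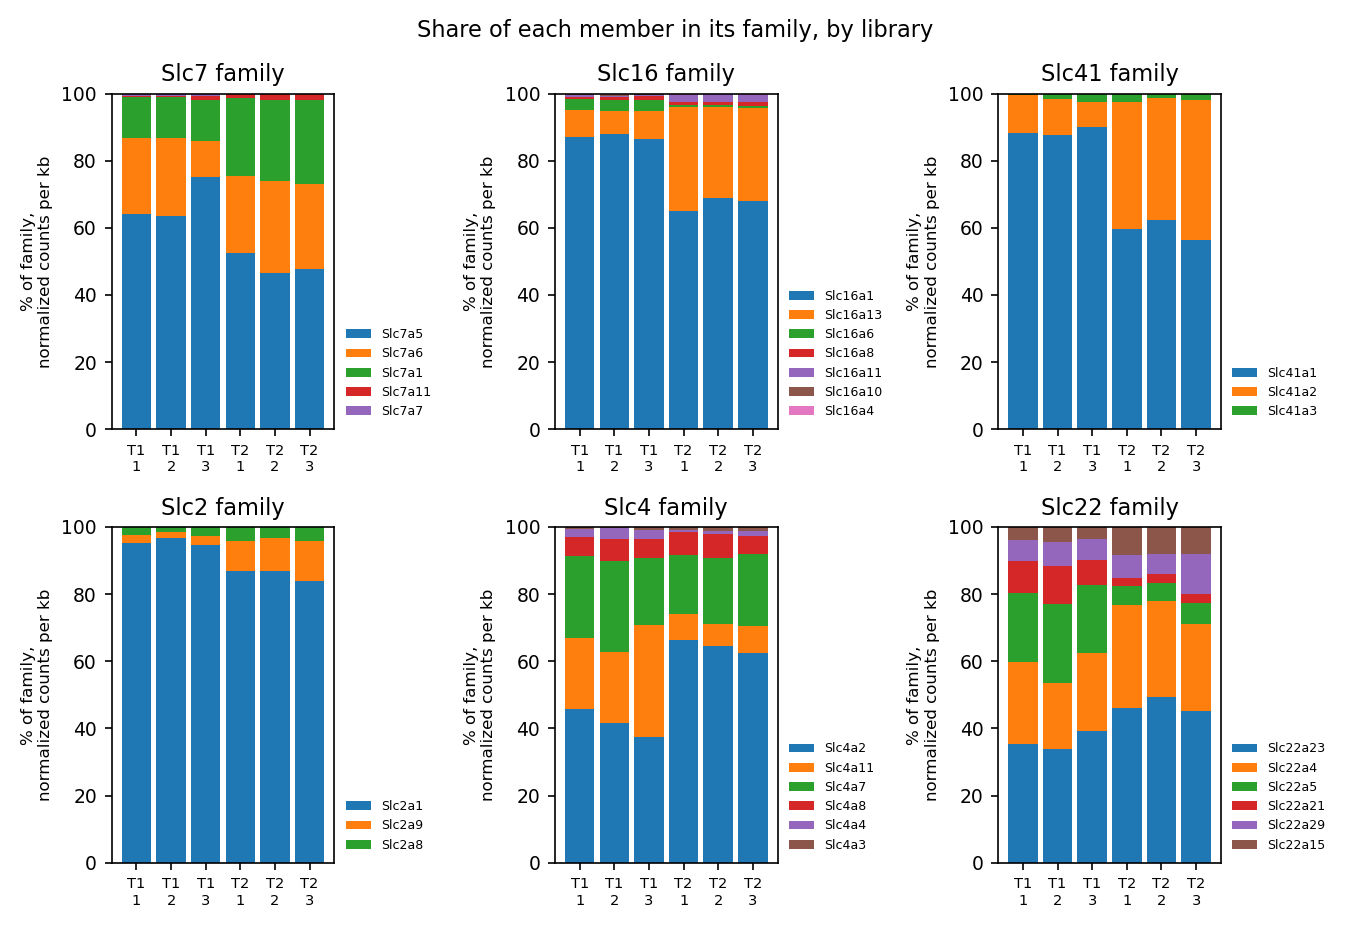
Share of each member in the normalized counts per kilobase of exon of its family, for 6 families, as stacked bars with 1 bar per library (T1 replicates 1 to 3, then T2 replicates 1 to 3). The T2 libraries hold larger shares of Slc16a13, Slc41a2, Slc2a9 and Slc4a2, and the T1 libraries larger shares of Slc7a5 and Slc4a11.

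Of 24 metal carriers 7 were higher and 9 lower in T1 (66.7%, against 49.5% of all genes tested), with a median of -0.12. Of the carriers of iron at the cell surface, Slc11a2 and the exporter Slc40a1 were higher in T1 and Slc39a14, which also carries zinc, was lower. Slc11a2 (DMT1), which takes up ferrous iron, had 1205, 1163 and 919 in T1 and 456, 528 and 444 in T2 (log2 fold change 1.19, SE 0.13, adjusted p = 1.8e-05). Slc40a1 (ferroportin), the iron exporter, had 31.7, 14.9 and 17.6 in T1 and 0, 1.02 and 0 in T2. With 64 reads in T1 and 1 in T2, the ratio of Slc40a1 was 64.6 (95% interval 11.2 to 2593, exact, counting error only), and its log2 fold change of 4.07 depends on the pseudocount. Neither the transferrin receptor Tfrc (0.24, adjusted p = 0.27) nor the mitochondrial iron carriers Slc25a37 and Slc25a28 were called, although Tfrc was called without T1 replicate 3 (0.50, adjusted p = 0.00079). Ferritin heavy chain (Fth1) was lower in T1 (-0.61, adjusted p = 0.0014).

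The 2 copper carriers differed in opposite directions. Slc31a1 (CTR1, high affinity copper uptake) had 1801, 1974 and 1887 in T1 and 779, 727 and 833 in T2 (log2 fold change 1.28, SE 0.09, adjusted p = 8.8e-07), and Slc31a2 (CTR2) had 117, 113 and 166 against 287, 254 and 265 (-1.04, SE 0.17, adjusted p = 0.00044). They lie 62.3 kb apart on chromosome 4 and on the same strand. Atp7a, the copper exporting ATPase, was lower in T1 (-0.91, adjusted p = 5.7e-05).

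Zinc carriers split by member. Slc39a4 (ZIP4, zinc uptake) had 82.5, 18.6 and 50.8 in T1 and 410, 430 and 446 in T2, 8.47-fold lower in T1 (log2 fold change -3.29, SE 0.41, adjusted p = 6.2e-05), with a wide spread among the T1 libraries. Slc39a14 (ZIP14, which also takes iron and manganese) was lower by -0.63 (adjusted p = 8.3e-05), whereas Slc39a10 (ZIP10) was higher by 0.81 (adjusted p = 0.00014). The estrogen regulated Slc39a6 (LIV-1) was not called (0.28, adjusted p = 0.079), but was called without T1 replicate 3 (0.43, adjusted p = 0.0023). In the Slc30 family of zinc carriers 83.3% were called, against 49.5% of all genes tested. Of its 6 members, Slc30a1 (ZnT1, export from the cell) was higher (0.82, adjusted p = 0.0052) and 4 of intracellular membranes were lower. Among these 4, Slc30a4 had a mean of 2872 in T1 and 4792 in T2. Without T1 replicate 3 the calls of Slc30a1 (0.71, adjusted p = 0.019) and of Slc30a5, one of the 4 (-0.32, adjusted p = 0.0094, against -0.26 and 0.020), were lost. The metallothioneins Mt1 and Mt2, which bind zinc and copper, were lower in T1 (-0.58 and -1.06).

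One magnesium carrier stood out. Slc41a2 had 94.2, 81.8 and 65.4 in T1 and 503, 504 and 600 in T2, 6.66-fold lower in T1 (log2 fold change -2.73, SE 0.17, adjusted p = 3.9e-07). Its relative Slc41a1 was not called (-0.17, adjusted p = 0.15), and the share of Slc41a2 among the 3 Slc41 members was 9.78% ± 1.92 in T1 and 38.5% ± 2.83 in T2 per kilobase (SD, n = 3).

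Ion carriers had 26 members, 4 higher and 7 lower in T1 (42.3%, against 49.5% of all genes tested). The cation chloride cotransporters of the Slc12 family set cell chloride and volume. Of their 6 members, 5 were lower in T1 (83.3%, against 24.4% of all genes tested). Slc12a7 (KCC4, which exports potassium and chloride) had 794, 713 and 746 in T1 and 1473, 1671 and 1351 in T2 (log2 fold change -0.99, SE 0.10, adjusted p = 1.4e-05). Slc12a2 (NKCC1, which brings sodium, potassium and chloride in) had 2704, 2932 and 2355 against 3789, 4035 and 3864 (-0.55, SE 0.09, adjusted p = 0.00035). The other 3 were Slc12a9 (-0.76), Slc12a4 (KCC1, -0.41) and the neuronal Slc12a5 (KCC2, -1.45, at a mean of 18.6 in T1 and 53.3 in T2). Of the kinases that act on these cotransporters, Stk39 (SPAK) had 2311, 2362 and 2699 in T1 and 798, 782 and 844 in T2 (log2 fold change 1.60, adjusted p = 1.9e-07), Oxsr1 (OSR1) was higher by 0.67, and Wnk1 was not called.

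The Slc4 family, whose bicarbonate carriers set cell pH, had 3 of 6 members higher and 1 lower in T1 (66.7%, against 49.5% of all genes tested). Slc4a4 (NBCe1, a sodium bicarbonate cotransporter) had 122, 162 and 176 in T1 and 30.4, 41.0 and 57.5 in T2 (log2 fold change 1.84, SE 0.26, adjusted p = 0.00013). Slc4a11 had 484, 515 and 1006 against 168, 157 and 170 (1.93, SE 0.24, adjusted p = 5.8e-05), and without T1 replicate 3 it was higher by 1.59 (adjusted p = 7.2e-06). Slc4a7 (NBCn1, a base loader) was higher by 0.48 (adjusted p = 0.0023). Slc4a2 (AE2), which loads acid by exchanging bicarbonate for chloride, was lower by -0.44 (adjusted p = 0.0010), with 41.6% ± 4.15 of the family's counts per kilobase in T1 and 64.5% ± 1.86 in T2. The surface carbonic anhydrases Car9 and Car12, which make bicarbonate from carbon dioxide, were higher in T1, Car9 with 840, 832 and 979 against 96.9, 94.2 and 122 (3.08, adjusted p = 5.7e-08) and Car12 by 2.74.

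Of the 5 proton exchangers of the Slc9 family, 1 was called (20%, against 49.5% of all genes tested). Slc9a8 (NHE8) was lower in T1 (log2 fold change -0.77). The endosomal Slc9a9 (NHE9) had 3.17, 3.72 and 13.7 against 17.6, 22.5 and 20.4, and was not called (-1.67, adjusted p = 0.013), but was called without T1 replicate 3 (-2.25, adjusted p = 0.00049) and with the replicate number as a block (adjusted p = 0.0092). The calcium exchanger Slc24a3 had 113, 104 and 225 in T1 and 13.7, 7.17 and 12.1 in T2, 13.4-fold higher in T1 (log2 fold change 3.59, SE 0.35, adjusted p = 1.0e-05), and 3.24 without T1 replicate 3. The phosphate carrier Slc20a1 was abundant and not called (-0.26, 95% interval -0.63 to 0.11). Atp1b1, a beta subunit of the sodium pump, whose gradient drives many of these carriers, was higher in T1 (2.11, adjusted p = 4.2e-07).

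Carriers of the mitochondrial Slc25 family were the largest class, with 39 members and a median of 0.08. Of these, 11 were higher and 6 lower (43.6%, against 49.5% of all genes tested). The ADP and ATP exchangers Slc25a5 (ANT2) and Slc25a4 (ANT1) were the 2 highest members per kilobase in both populations. Slc25a5 had 16970, 17932 and 16565 in T1 and 10687, 10923 and 9332 in T2 (log2 fold change 0.74, SE 0.08, adjusted p = 2.3e-05), Slc25a4 was higher by 0.52, and the phosphate carrier Slc25a3 by 0.80 (adjusted p = 3.1e-06). The exchangers have close relatives and processed copies, and how reads shared with them were counted is not stated. Slc25a1, the citrate carrier that feeds lipid synthesis, had 1413, 1319 and 1629 in T1 and 446, 394 and 470 in T2 (1.73, SE 0.11, adjusted p = 5.7e-07). Slc25a15, the ornithine carrier of the urea cycle, was higher by 1.59 (adjusted p = 7.5e-06).

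Close relatives within the class differed in opposite directions. The pyrimidine nucleotide carriers are Slc25a33, with 767, 817 and 947 in T1 and 235, 265 and 211 in T2 (1.83, SE 0.13, adjusted p = 1.1e-06), and Slc25a36, with 237, 224 and 253 against 548, 556 and 655 (-1.29, SE 0.12, adjusted p = 7.8e-06). Of the calcium regulated carriers of ATP-Mg, Slc25a25 was higher by 1.05 and Slc25a24 lower by -0.95, the latter at a mean of 4368 ± 287 in T1 and 8432 ± 421 in T2 (SD, n = 3). The dicarboxylate carrier Slc25a10 (-0.91) and the oxoglutarate malate exchanger Slc25a11 (-0.75) were lower, while the aspartate glutamate carriers Slc25a12 and Slc25a13 were not called. Slc25a48 had the largest relative difference, with 240, 210 and 219 in T1 and 16.6, 36.9 and 22.3 in T2 (3.16, SE 0.27, adjusted p = 4.1e-06).

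Carriers of organic ions and other solutes held 5 of the 12 members past both filters in the lower direction. The class has 10 members, so this is 50%, against 4.2% of all genes tested. Of the 5, Slc14a1 and Slc6a4 reached the mean of 10 in T2 only, so that their membership and their fold rest on the same values. Slc14a1, a urea carrier, had 279, 255 and 696 in T2 and 1.06, 0 and 0 in T1, which is 1284 reads against 1. The ratio was 1271 (95% interval 228 to 50248, exact, counting error only), and T2 replicate 3 was the highest of the T2 libraries by more than 1.5-fold. Slc6a4, the serotonin carrier, was at the detection limit in T1, with 3 reads against 62 in T2, a ratio of 20.5 (6.68 to 102). The Slc22 family had 4 of 6 members lower (66.7%, against 24.4% of all genes tested) and 0 higher in T1. Slc22a15 had 134, 135 and 115 in T1 and 873, 866 and 807 in T2 (-2.72, SE 0.12, adjusted p = 4.6e-08), and Slc22a23 had 560, 464 and 578 against 2209, 2422 and 2032 (-2.06, SE 0.11, adjusted p = 1.5e-07). Slc22a4 (OCTN1, the ergothioneine carrier) had 154, 108 and 137 against 581, 560 and 466 (-2.01, SE 0.16, adjusted p = 2.7e-06). Its neighbors on chromosome 11 and relatives, the carnitine carriers Slc22a21, 2.79 kb away, and Slc22a5, were not called (0.11 and 0.20).

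Carriers of nucleosides and vitamins also split between relatives. The nucleoside carrier Slc29a1 (ENT1) had 3553, 3170 and 2397 in T1 and 6661, 6196 and 5644 in T2 (-1.04, SE 0.13, adjusted p = 6.6e-05), whereas Slc29a2 (ENT2) was higher by 0.84 (adjusted p = 0.0020) and the lysosomal Slc29a3 (ENT3) by 0.65. The reduced folate carrier Slc19a1 had 1948, 1837 and 1478 in T1 and 565, 692 and 509 in T2 (1.58, SE 0.14, adjusted p = 4.6e-06), and its relative Slc19a2, a thiamine carrier, had 917, 848 and 663 against 2791, 3884 and 2536 (-1.91, SE 0.16, adjusted p = 4.1e-06). Slc46a3 was lower at low counts, with 3.17, 2.79 and 3.90 in T1 and 33.3, 18.4 and 34.3 in T2 (-2.75, SE 0.39, adjusted p = 0.00014). The Golgi carriers of CMP-sialic acid (Slc35a1, -0.51) and UDP-galactose (Slc35a2, -0.57), which supply glycosylation, were lower. Of the 5 Slc35 members, 3 were lower and 1 higher (80% called, against 49.5% of all genes tested). The higher one was Slc35a4 (0.48), the most abundant of them per kilobase in both populations. The lipid class had 1 call, Slc27a1 (FATP1, fatty acid uptake), with 1508, 1363 and 2014 against 4209, 3774 and 3907 (-1.30, SE 0.13, adjusted p = 1.2e-05).

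The members were next compared by the letters in their promoters. Of the 127 members with a RefSeq promoter, 42 were lower in T1, and 13 of these (31.0%) held the palindromic E-box CACGTG, the letters read by basic helix-loop-helix factors such as MYC, USF and TFEB. It was present in 4 of 28 members higher in T1 (14.3%) and in 6 of 57 not called (10.5%). The share was 12.0% among all 8840 tested genes with a promoter, 10.7% among those called lower and 13.4% among those called higher. It was 8.09% among all genes with a RefSeq promoter, and 7.15% of all promoter windows held it. A gene was counted if the window of any of its starts held the letters. Some members, Slc29a1 among them, lacked the E-box at other starts. The 13 members included Slc12a5, Slc12a7 and Slc12a9 of the chloride cotransporters, Slc29a1, Slc31a2, Slc36a1 and Slc22a4. Slc36a1, lower in T1 in a class where most calls were higher, and Slc22a4, which passed both filters, are shown with the E-box in capitals. Slc36a1 is chr11:55204090-55204339, plus strand, and Slc22a4 is chr11:54028105-54028354, minus strand, both upstream of the start in build GRCm38.p6.
Slc36a1: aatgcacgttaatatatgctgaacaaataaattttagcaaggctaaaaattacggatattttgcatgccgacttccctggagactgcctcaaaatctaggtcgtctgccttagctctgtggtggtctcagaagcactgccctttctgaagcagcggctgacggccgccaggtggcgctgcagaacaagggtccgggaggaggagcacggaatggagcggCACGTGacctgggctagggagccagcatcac
Slc22a4: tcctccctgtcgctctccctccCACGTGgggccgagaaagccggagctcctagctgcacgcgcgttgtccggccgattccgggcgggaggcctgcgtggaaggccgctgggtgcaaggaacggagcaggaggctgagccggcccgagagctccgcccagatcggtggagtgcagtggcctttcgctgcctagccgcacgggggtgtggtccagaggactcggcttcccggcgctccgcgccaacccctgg
The E-box and CARE were 2 of 11 motifs searched on both strands, chosen with the calls known, and the shares are a description with no test. The background for each is given first over all RefSeq genes and then over the tested genes with a promoter. The hypoxia core ACGTG, which lies within the E-box, was found in 21.8% of all and 30.0% of tested genes, and in 35.7% of members higher and 42.9% of members lower in T1. The GC box GGGCGG was found in 38.2% of all and 71.2% of tested genes, and in 92.9% of higher and 78.6% of lower members. Of the 2 forms of the metal response core, TGCGCNC stood at 17.0% and 31.2% against 35.7% and 40.5%, and TGCACNC at 14.2% and 14.8% against 14.3% and 26.2% in that order. The TEAD site GGAATG stood at 16.6% and 14.0% against 21.4% and 28.6%, and the antioxidant element TGACNNNGC at 14.0% and 17.2% against 28.6% and 16.7%. The AP-1 site TGANTCA was found in 8.97% and 6.2% of genes and in 0% and 9.52% of members, the tonicity core TGGAAA in 23.9% and 19.2% against 17.9% and 11.9%, and the sterol element TCACNCCAC in 1.44% and 1.33% against 0% and 2.38%.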

How the data were processed

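RNA was sequenced from 3 replicates each of T1 and T2 cells. According to the study's methods the authors used TopHat2 to align reads to mm10, HTSeq for gene counts and DESeq2 size factors to scale them. The deposited signal is therefore a normalized count per gene, made by the authors. The annotation and the strand setting of the counting were not given in the sources used here. All values (100%) came out as whole reads, within 0.01 of a read, after division by the worth of 1 read, and reads so recovered entered the count tests. There were 0 unused columns.

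All 11514 genes whose mean reached 10 were fitted with limma 3.58.1 (R 4.3.3) on log2(normalized count + 1) with the mean-variance trend, and p-values were adjusted by Benjamini-Hochberg over all of them. Fold changes on this scale understate the change of genes with few reads. For single genes, the smallest two-sided exact permutation p that 3 against 3 libraries allow is 0.1. Alternatives were pseudocounts of 0.5 and 5, no filter and a mean of 50, quantile normalization, limma without the trend, edgeR 4.0.16 (quasi-likelihood) and DESeq2 1.42.0 on the reads, an adjusted p of 0.05, a replicate block, and leaving out each library. The fits were tested on simulated data. Ratios of genes with 1 to 3 reads in a population have exact binomial intervals, which cover counting error only.

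Coordinates and exonic lengths came from GENCODE (mm10), found for all 163 members. Exons of 49 members overlap those of another gene, 41 on the other strand and 10 on the same strand, and only those named in the results are marked there. Promoters, 250 bases before to 50 after a start, came from RefSeq (GRCm38.p6) for 127 members. Members, classes, lists and motifs were chosen with earlier results of these data known. Genes named are the 3 most different per class and direction among those called without overlap (46), 26 fixed carriers, members past both filters, and partner genes that passed; other members named, those that stood apart in T1 replicate 3 among them, were chosen after their values were seen. Of 43 partner genes listed, 36 were tested, 12 called higher and 11 lower. Results for 3 of the genes tested are not reported here. Names of 27 genes had been turned into dates, and none is a member. Plots used matplotlib 3.10.9 (Python 3.11.15).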

Additional observations from a re-analysis of the deposited data

How the results depend on the processing

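The 85 member calls were largely shared across methods. The edgeR fit made 83 calls, each shared with the 85 at the same sign, and DESeq2 made 90, which held all 85. The filter at a mean of 50 left 2 members higher past both filters instead of 5, gave 0 sugar carriers called higher instead of 1, and moved the class medians of ions to 0.11, lipids to -0.39, monocarboxylates to -1.26 and sugars to -0.76, with fewer members in each class. At an adjusted p of 0.05, 7 ion carriers were higher instead of 4 and 2 lipid carriers lower instead of 1. Limma without the trend called 1 nucleoside carrier higher instead of 3. Between T1 and T2 libraries of the same replicate number, the correlations of deviations were 0.0575, 0.172 and 0.104. Those of unlike number ran from -0.152 to 0.0719, and T2 replicate 1 correlated best with T1 replicate 3. Whether the replicate numbers pair the libraries was not tested. With the replicate block 85 members were called, 83 of them shared, and 2 lipid carriers were lower instead of 1.

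Leaving out 1 library at a time gave class medians of 0.15 to 0.50 for amino acids, -0.63 to -0.36 for lipids and 0.040 to 0.092 for mitochondrial carriers. It gave 4 to 7 sugar carriers lower (4 without T2 replicate 1), 1 to 3 nucleoside carriers higher (1 without T1 replicate 1) and 1 to 3 vitamin carriers higher (1 without T1 replicate 2, T2 replicate 1 or T2 replicate 3). The members called numbered 30 to 38 higher and 40 to 49 lower. None of the 3 genes that turned direction was called: the log2 fold change ranged from -0.37 to 0.68 for Slc7a11, from -0.10 to 0.11 for Slc38a2 (0.03 without T1 replicate 1) and from -0.21 to 0.037 for Slc16a1. Except as stated, the cause of these shifts was not tested. Precision is limited by 3 libraries a population, and for Slc40a1, Slc14a1 and Slc6a4 also by read number.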

Other observations

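Some members are neighbors on a chromosome. Of the 163 members, 10 pairs of neighbors lay within 100 kb of each other, and in 4 of these both genes were called. Taken singly, 52.1% of the members and 49.5% of all genes tested were called. Whether neighbors differ from other pairs of genes was not tested. Slc16a11 and Slc16a13 were both lower in T1, and Slc25a43 and Slc25a5, 18.4 kb apart on chromosome X, were both higher (log2 fold changes 1.21 and 0.74). In the other 2 pairs the genes differed in direction. These were Slc31a2 and Slc31a1, and Slc52a2 and Slc39a4, 67.8 kb apart on chromosome 15, where the riboflavin carrier Slc52a2 had a mean of 429 in T1 and 305 in T2 and the zinc carrier Slc39a4 50.6 and 429. Slc38a1 and Slc38a2, 44.5 kb apart, differed in that only the first was called, and their difference was not tested.

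Per kilobase of exon, the order of the most abundant members differed between the populations below the first ranks. Slc7a5 stood at rank 4 of 163 in T1, with 2537 ± 1019 normalized counts per kilobase (SD, n = 3), and at rank 22 in T2, with 662 ± 65.3. Slc29a1 stood at rank 15 in T1, with 759 ± 147, and at rank 6 in T2, with 1539 ± 127. Slc25a24 held ranks 8 and 3.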
